A study of Homo sapiens with 18 samples.

Results

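The genes described here are 10 noncoding host genes of small nucleolar RNAs (snoRNAs): GAS5, SNHG1, SNHG5, SNHG6, SNHG7, SNHG8, SNHG12, SNHG15, ZFAS1 and EPB41L4A-AS1. They were taken by symbol from a fixed list of 10 names, and all 10 were found and tested in each of the 3 expression tables, which together listed 37302 distinct genes. The names had been proposed with the differences in these same tables known, so the differences of the 10 genes are given as a description, without p-values, and a count of calls among them is no independent evidence. RNA sequencing of poly(A)-selected RNA was done on 18 libraries in 6 groups of 3. SW480 is a human colon cancer cell line, and LX-2 is a human hepatic stellate cell line.

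There were 3 comparisons, each within its own table. LV5-NID1 cells are SW480 cells that overexpress NID1, a basement membrane glycoprotein, and they were kept for 72 hours with GW4869, an inhibitor of exosome release. Their controls, SW480 cells labelled LV5, carry no stated NID1 construct, and the labels do not say whether they also received GW4869, so overexpression and inhibitor cannot be told apart. EV-XP-NID1-LX-2 cells are LX-2 cells incubated for 48 hours with exosomes containing NID1, and EV-XP-LX-2 cells are their controls, not stated to be untreated: their name carries the same EV prefix, but what they were incubated with is not described. What XP stands for is not given. SW480-LM3 cells came from SW480 cells after 3 rounds of selection for metastasis by injection into the spleen, and SW480-P cells are the parental cells. Nothing states that the replicates were separate cultures, so p-values measure only the spread between libraries, which may be technical.

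A snoRNA guides chemical modification of ribosomal and other RNA. Most human snoRNAs lie inside introns: the host gene is transcribed and spliced, and the snoRNA is trimmed from the excised intron while the exons are joined into a host RNA. In the hosts described here the joined exons encode no known conserved protein. Several of these spliced RNAs are known to be bound by ribosomes and removed by nonsense-mediated decay, so their level reflects both synthesis and translation-coupled loss. Many host genes, like ribosomal protein genes, start transcription at a C inside a run of pyrimidines, the terminal oligopyrimidine (TOP) start that links translation to growth signals. GAS5 is named for its accumulation in growth-arrested cells. Hosts of box C/D snoRNAs, which guide ribose methylation, are GAS5, SNHG1, SNHG5, SNHG6 and ZFAS1. Hosts of box H/ACA snoRNAs, which guide pseudouridylation, are SNHG7, SNHG8, SNHG15 and EPB41L4A-AS1, and SNHG12 carries snoRNAs of both kinds. The snoRNAs themselves were not analysed here.

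The start of each host is shown because the pyrimidine run at the first base is the sequence feature these genes are known for. RefSeq start sequences of build GRCh38.p14 were found for 8 of the hosts, each as 50 bases running from 10 bases before the annotated first base to 40 bases from it on. Capitals mark every run of 5 or more C or T bases that opens with C.
GAS5 (chr1:173869006-173869055, minus strand): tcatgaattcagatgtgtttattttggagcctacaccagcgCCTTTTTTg
SNHG1 (chr11:62855846-62855895, minus strand): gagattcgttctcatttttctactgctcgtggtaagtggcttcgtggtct
SNHG5 (chr6:85678694-85678743, minus strand): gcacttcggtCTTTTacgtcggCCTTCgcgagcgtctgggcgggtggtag
ZFAS1 (chr20:49278632-49278681, plus strand): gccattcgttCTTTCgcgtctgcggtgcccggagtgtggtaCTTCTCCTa
SNHG12 (chr1:28581834-28581883, minus strand): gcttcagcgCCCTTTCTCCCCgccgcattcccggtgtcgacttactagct
SNHG7 (chr9:136728145-136728194, minus strand): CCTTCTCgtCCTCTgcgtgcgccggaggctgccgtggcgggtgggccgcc
SNHG8 (chr4:118278752-118278801, plus strand): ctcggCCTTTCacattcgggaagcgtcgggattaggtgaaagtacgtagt
EPB41L4A-AS1 (chr5:112160516-112160565, plus strand): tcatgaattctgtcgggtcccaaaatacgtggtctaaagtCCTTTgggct

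The annotated first base was a C in 6 of these 8 hosts, against 14.7% of the 35116 RefSeq windows of the same length. A run of at least 5 pyrimidines from that C was present in 3 of the 8 (SNHG5, SNHG12 and ZFAS1), against 4.1% of all windows, 47 of 78 cytosolic ribosomal protein genes (60.3%) and 4 of 16 other noncoding snoRNA hosts. The run in SNHG12 was the longest, at 12 pyrimidines opening 1 base before the annotated start, and a run as long stood in 2.8% of all windows. In GAS5 the annotated first base was not a C, and its longest run, 8 pyrimidines, opened at base 32 of the transcript. Another annotation, GENCODE v29, starts GAS5 at base 173868882, outside the window shown. The sequence at that start was not searched, so whether GAS5 has a pyrimidine run there is not known from this search. All counts here hold for the RefSeq starts only. A run of 5 or more stood somewhere in the window in 7 of the 8 hosts and in 51.4% of all windows. Only the strand of the transcript was searched. A match describes the letters at an annotated start and says nothing of how the start is used in these cells.

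Reads could be recovered for the SW480-P and SW480-LM3 libraries only, with 15504205 to 18965163 of them in each library of SW480-P and 15531517 to 16586016 in each of SW480-LM3. The other 12 libraries are in TPM (a unit scaled by transcript length), and their depth is unknown. The NID1 transcript followed the labels in LV5-NID1 (348 to 379 TPM against 0 to 0.04 in LV5) and was 46.9 ± 2.21 (SD, n = 3) in SW480-LM3 against 0.501 ± 0.129 in SW480-P. In LX-2 cells, where NID1 was added with exosomes, its transcript was lower in EV-XP-NID1-LX-2 (18 to 22.6 TPM) than in EV-XP-LX-2 (25.1 to 26.0 TPM). Summed epithelial markers were 1630 to 1670 TPM in LV5 and 927 to 988 in LV5-NID1, where CDX2 was at 0. Of the 8 listed, 4 reached a mean of 1 TPM in LV5 and 3 in LV5-NID1. In LX-2 cells 7 of 8 listed stellate and mesenchymal markers reached 1 TPM, and their sum was 321 to 342 TPM in EV-XP-LX-2 and 241 to 292 in EV-XP-NID1-LX-2. Epithelial markers there summed to 248 to 261 TPM in EV-XP-LX-2 and 200 to 232 in EV-XP-NID1-LX-2, with 2 of 7 listed reaching 1 TPM. Leukocyte, hepatocyte and endothelial markers summed to under 3 TPM in every LV5, LV5-NID1 and LX-2 library. From SW480-P to SW480-LM3, summed signal went from 3520-3790 to 13200-13900 for 7 listed epithelial markers, from 4.54-5.14 to 22.7-25.4 for 5 stellate and mesenchymal markers, and from 0-0.466 to 6.08-7.68 for the 1 listed leukocyte marker; the part of these differences in the host values below was not tested. The SW480-LM3 libraries ranked genes less like LV5 (Spearman rho 0.694 over 14744 genes) than SW480-P did (0.886), and their rho with EV-XP-LX-2, a line of another origin, was 0.713, against 0.794 for SW480-P, so effects of selection and a different origin of the cells cannot be told apart. In bulk RNA, fewer cells with a transcript and less transcript per cell cannot be told apart.

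A pair of libraries stood apart. LV5-NID1 replicate 3 was low in GC-rich genes: against the other 2 LV5-NID1 libraries its median log2 deviation was -0.68 over the 1379 genes of at least 60% GC and 0.13 over the 3427 genes under 45% GC. EV-XP-NID1-LX-2 replicate 2 was the highest of its group for 8 of the 10 hosts, with a median deviation of 0.24, while its median over 11352 genes was -0.13. Ribosomal protein genes moved with it, 70 of 79 lying above the mean of the other 2 libraries (median 0.22), whereas other noncoding snoRNA hosts lay lower (median -0.11). Results are therefore also given without these libraries; what set them apart was not tested.

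In SW480 cells with NID1 and GW4869, GAS5, ZFAS1 and SNHG5 were 1.89- to 2.18-fold higher, and the other hosts were closer to their controls or varied between libraries. By limma on log2(TPM + 1), with a call at a Benjamini-Hochberg adjusted p under 0.05 over the 15508 genes tested, 3 of the 10 hosts were called, all higher, where 7.27% of all genes were called higher and 9.32% lower (16.6% in either direction). The levels in LV5-NID1 lay above every LV5 library for 6 of the 10 hosts, where this was so for 21.7% of all genes (43.3% in either direction). The median log2 difference of the 10 hosts was 0.26, against 0.01 for all genes.

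Among the box C/D hosts, GAS5 was at 1136, 1160 and 1221 TPM in LV5 and at 2499, 2439 and 2739 TPM in LV5-NID1. The groups were far apart, with a 2.18-fold higher mean and a log2 difference of 1.12 ± 0.06 (SE). ZFAS1, the host of the SNORD12 family, was at 506, 512 and 548 TPM in LV5 and at 1028, 1017 and 1035 TPM in LV5-NID1. Its 3 LV5-NID1 libraries lay close together, and the mean was 1.97-fold higher (log2 difference 0.98 ± 0.047). SNHG5, which hosts the SNORD50 pair, was at 182.5, 198.7 and 199.7 TPM in LV5 and at 345, 358 and 394 TPM in LV5-NID1, 1.89-fold higher (0.91 ± 0.068). These 3 genes differed by amounts several times the spread between libraries. SNHG1, host of a cluster of box C/D snoRNAs, was at 378, 412 and 415 TPM against 448, 452 and 471 TPM, without overlap but only 1.14-fold higher, and it was not called.

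SNHG6 was at 487, 502 and 497 TPM in LV5 and at 741, 685 and 482 TPM in LV5-NID1. Replicates 1 and 2 lay above all controls and replicate 3 below all of them, and SNHG6 was not called (log2 difference 0.34 ± 0.16). SNHG8, an H/ACA host, showed the same split, with 249, 264 and 265 TPM in LV5 against 309, 319 and 244 TPM in LV5-NID1. SNHG7, also an H/ACA host, was at 106, 105 and 102 TPM in LV5 and at 122, 115 and 45.1 TPM in LV5-NID1. The low value again came from replicate 3, the library low in GC-rich genes. The gene's GC content was 59.9% for SNHG7. Its deviation in replicate 3 was -1.37, where the median of genes in the bin centred on 59% GC was -0.237. SNHG6 and SNHG8 had a GC content of 42.0% and 42.1% and deviations of -0.56 and -0.36. The median of genes under 45% GC was 0.13 in that library. The part of GC content in these values was not tested. Without LV5-NID1 replicate 3, SNHG6 (0.52), SNHG7 (0.18) and SNHG8 (0.27) were also called higher, which gave 6 of 10 with 21.4% of all genes called in either direction. With each library's trend on GC content removed, 3 hosts were called. That count also depends on how many of all genes were called in that fit, so it is no measure of stability.

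**Figure D1:**
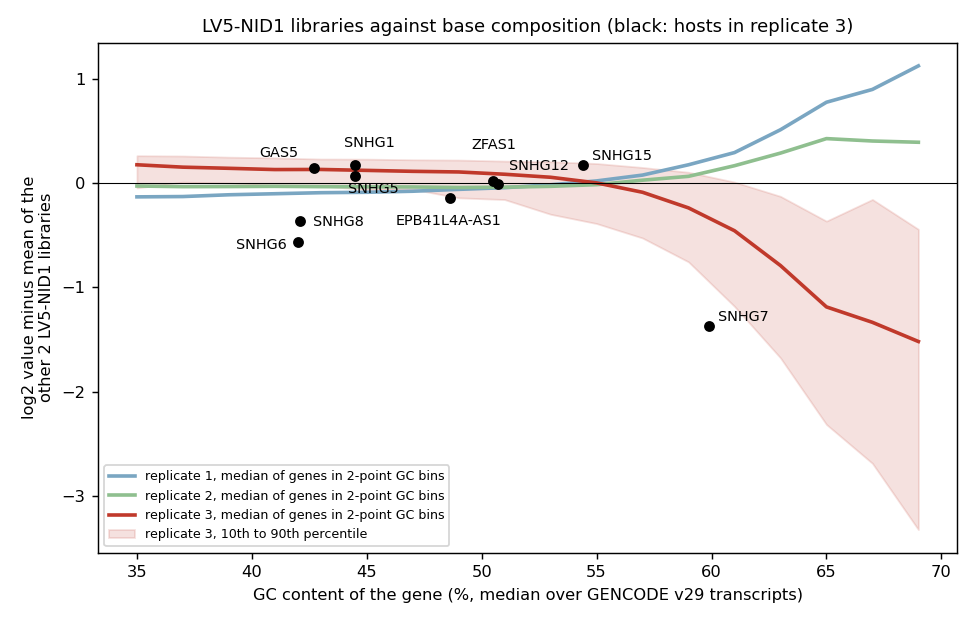
LV5-NID1 libraries against base composition. The x axis is the GC content of each gene (%), and the y axis is the log2 value of a library minus the mean of the other 2 LV5-NID1 libraries; lines are medians in bins of 2 GC points for each replicate, the band is the 10th to 90th percentile in replicate 3, and black points are the hosts in replicate 3. The line of replicate 3 falls at high GC content. SNHG7, at 59.9%, lies under both the line and the band, at -1.37. SNHG6 and SNHG8 also lie well under the line, at 42.0% and 42.1%.

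Of the other hosts, SNHG15 was at 72.5, 78.3 and 69.2 TPM in LV5 and at 82.0, 78.8 and 90.3 TPM in LV5-NID1, a small shift without overlap. SNHG12, with snoRNAs of both kinds, was at 54.6, 57.2 and 53.3 TPM against 67.0, 56.2 and 60.9 TPM, and the groups overlapped. EPB41L4A-AS1, the host of SNORA13, was at 28.5, 33.7 and 41.3 TPM against 73.8, 44.6 and 52.0 TPM. It did not overlap and its mean was 1.65-fold higher, but with a wide spread (0.69 ± 0.21) it was not called. Summed over the 10 hosts, the level was 3311 ± 106 TPM in LV5 and 5631 ± 77 TPM in LV5-NID1 (SD, n = 3). GAS5 alone held 1172 and 2559 TPM of these sums, so they describe the most abundant hosts rather than each host.

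In LX-2 cells incubated with NID1 exosomes, SNHG1, SNHG8 and SNHG15 were 1.62- to 1.77-fold higher, ZFAS1 was 1.48-fold higher and SNHG12 was 1.21-fold higher. Of the 10 hosts, 5 were called and all were higher, where 17.8% of the 15802 genes tested were called higher, 24.6% lower and 42.3% in either direction. Without overlap, 6 hosts lay above all controls, against 23.4% of all genes (55.9% in either direction). The median of the 10 hosts was 0.30, against -0.05 for all genes. Mitochondrially encoded genes held 6.09% ± 0.112 of the TPM in EV-XP-LX-2 and 3.69% ± 0.13 in EV-XP-NID1-LX-2 (SD, n = 3). With the libraries rescaled without those genes the median of the 10 hosts was 0.27, and 5 hosts were called. That count also depends on how many of all genes were called in that fit, so it is no measure of stability.

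SNHG1 was at 451, 468 and 448 TPM in EV-XP-LX-2 and at 753, 905 and 767 TPM in EV-XP-NID1-LX-2. Every exosome library with NID1 was far above every control, with a 1.77-fold higher mean (log2 difference 0.82 ± 0.074). SNHG8 was at 50.2, 47.1 and 46.0 TPM against 69.9, 87.0 and 76.2 TPM, 1.63-fold higher (0.68 ± 0.083). SNHG15 was at 40.4, 39.5 and 34.3 TPM against 59.6, 63.5 and 62.3 TPM, 1.62-fold higher (0.69 ± 0.072). In SNHG15 the 3 NID1 libraries lay close together, so the difference did not rest on replicate 2. ZFAS1 was at 213, 256 and 252 TPM against 317, 431 and 316 TPM, with replicate 2 well above the others and a mean 1.48-fold higher (0.55 ± 0.13). SNHG12 was at 22.7, 20.3 and 20.3 TPM against 25.7, 25.7 and 24.9 TPM. Its shift was small but tight, and it was no longer called without EV-XP-LX-2 replicate 2 (log2 difference 0.24) or without EV-XP-LX-2 replicate 3 (0.24), which left 4 hosts called in each case.

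GAS5, the host with the largest difference in the SW480 cells with NID1 and GW4869, was at 562, 593 and 599 TPM in EV-XP-LX-2 and at 619, 922 and 716 TPM in EV-XP-NID1-LX-2. The groups did not overlap, but the NID1 libraries were widely spread and GAS5 was not called (0.34 ± 0.13). It was called without EV-XP-NID1-LX-2 replicate 1 (0.47), and its difference was 0.19 without replicate 2. SNHG5 was at 1024, 1009 and 1014 TPM against 1000, 1239 and 1007 TPM, so that only replicate 2 lay above the controls. Without that replicate its log2 difference turned from 0.08 to -0.017. SNHG6 was at 149, 132 and 154 TPM against 131, 151 and 124 TPM, SNHG7 at 32.3, 28.0 and 30.5 TPM against 31.8, 27.0 and 33.9 TPM, and EPB41L4A-AS1 at 25.04, 23.8 and 30.4 TPM against 23.7, 19.4 and 31.9 TPM. In these 3 hosts the groups overlapped. Without EV-XP-NID1-LX-2 replicate 2, 5 hosts were called. Such a count also depends on how many of all genes were called in that fit, so it is no measure of stability.

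Only ZFAS1 was called in both of these comparisons, GAS5 and SNHG5 in LV5-NID1 only and 4 hosts in EV-XP-NID1-LX-2 only; 3 hosts were called in neither. Of the 12873 genes tested in both tables, 1.63% were called higher in both, 4.10% higher in LV5-NID1 only, 16.2% higher in EV-XP-NID1-LX-2 only and 47.3% in neither. Whether a host's difference differed between the comparisons was not tested, because the tables were normalised separately. GAS5, SNHG1, SNHG15 and ZFAS1 lay above all controls in both, where 6.68% of those genes did. The hosts were proposed with both comparisons known, so nothing is read from these counts.

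**Figure D2:**
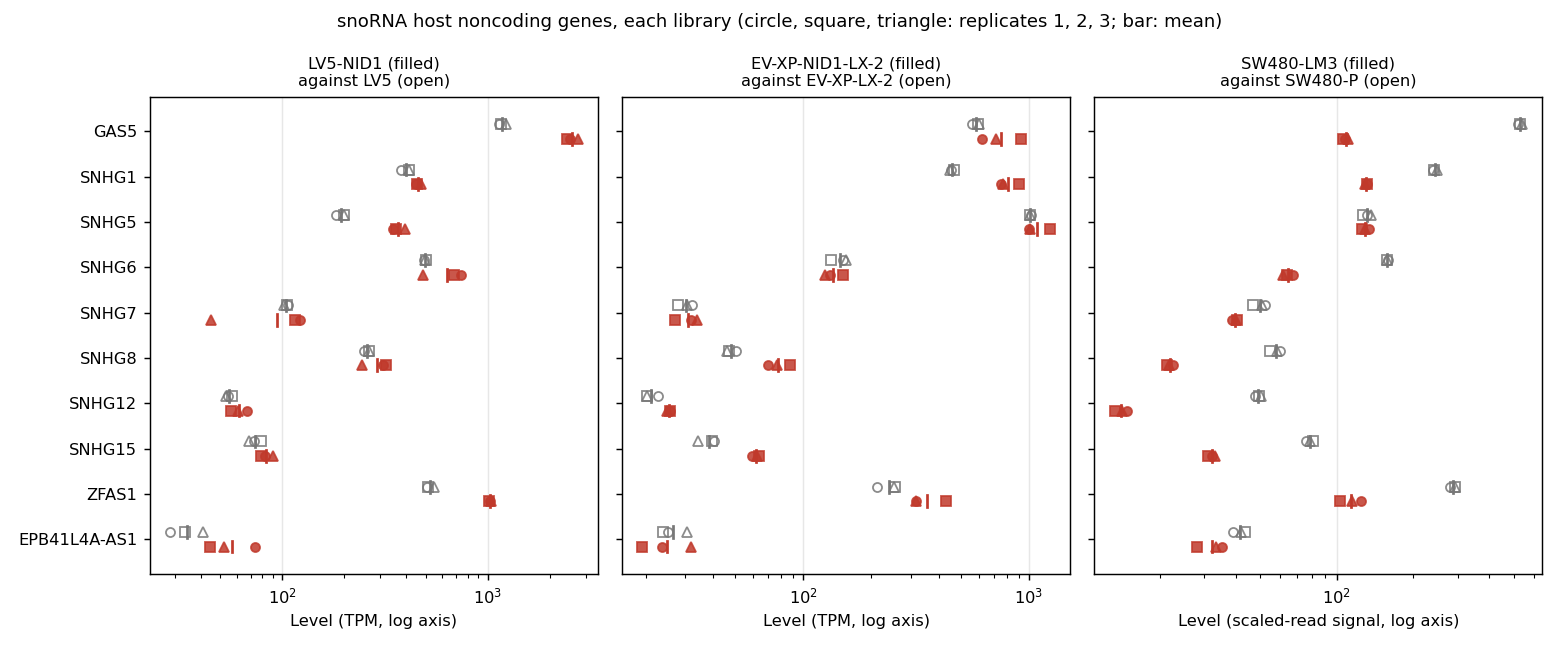
Level of each host in each library. The x axis is the level on a log axis, in TPM for the first 2 panels and as scaled-read signal for the third, and rows are hosts; open grey symbols are controls, filled red symbols are the other group, symbol shapes are replicates 1 to 3, and bars are group means. GAS5, SNHG5 and ZFAS1 separate widely in LV5-NID1, SNHG1, SNHG8 and SNHG15 in EV-XP-NID1-LX-2, and all hosts but SNHG5 lie lower in SW480-LM3.

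In the libraries labelled SW480-LM3, 9 of the 10 hosts were lower than in SW480-P, and SNHG5 was level. The deposited signal (reads divided by a factor for each library, with no correction for gene length) was tested by limma on log2(signal + 1) over 14527 genes. The 9 hosts were called lower and none overlapped with SW480-P, but 43.9% of all genes were called lower (87.8% in either direction) and 43.8% lay below all SW480-P libraries (87.6% without overlap in either direction), so a call is common in this comparison. The size of the differences is therefore given beside the spread of all genes, whose 10th percentile was -1.62. The median of the hosts was -1.28, against 0.00 for all genes.

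GAS5 was at 519, 530 and 539 in SW480-P and at 108, 106 and 111 in SW480-LM3. It had the largest difference of the hosts, 4.88-fold lower (log2 difference -2.28 ± 0.034, at percentile 4.9 of all genes). These values rest on 7294 to 9097 reads per library in SW480-P and 1816 to 2043 in SW480-LM3. SNHG12 was at 47.4, 49.5 and 50.4 against 14.9, 13.3 and 14.3 (-1.73 ± 0.073), the other host beyond the 10th percentile of all genes. The remaining hosts lay within it.

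SNHG8 was at 59.9, 54.5 and 58.2 against 22.6, 21.4 and 21.7 (-1.35 ± 0.064), and ZFAS1 at 279, 293 and 292 against 125, 103 and 115 (-1.33 ± 0.057). SNHG6 was at 159, 157 and 158 against 67.3, 63.5 and 61.3 (-1.29 ± 0.045), and SNHG15 at 75.4, 80.6 and 78.8 against 32.3, 31.1 and 33.0 (-1.26 ± 0.055). These 4 hosts, of C/D and H/ACA snoRNAs alike, were lower by close to the same factor. SNHG1 was at 240.5, 243 and 249.7 against 131, 132 and 130 (-0.90 ± 0.036). SNHG7 was at 52.3, 46.7 and 50.8 against 38.5, 40.5 and 39.9 (-0.33 ± 0.061), and EPB41L4A-AS1 at 38.9, 43.3 and 41.9 against 35.2, 28.1 and 33.5 (-0.35 ± 0.082). These last 2 shifts were small and depend on scaling: with each library scaled to its total, which moved the median of all genes to 0.26, they were -0.043 and -0.073 and were not called. SNHG5 was at 132, 127 and 136 against 134, 126 and 129 (-0.02 ± 0.042), with overlapping groups. Under that total scaling SNHG5 was called higher (0.26), so the direction of SNHG5 in this comparison flips with scaling, while GAS5, SNHG1, SNHG6, SNHG8, SNHG12, SNHG15 and ZFAS1 were called lower under either.

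**Figure D3:**
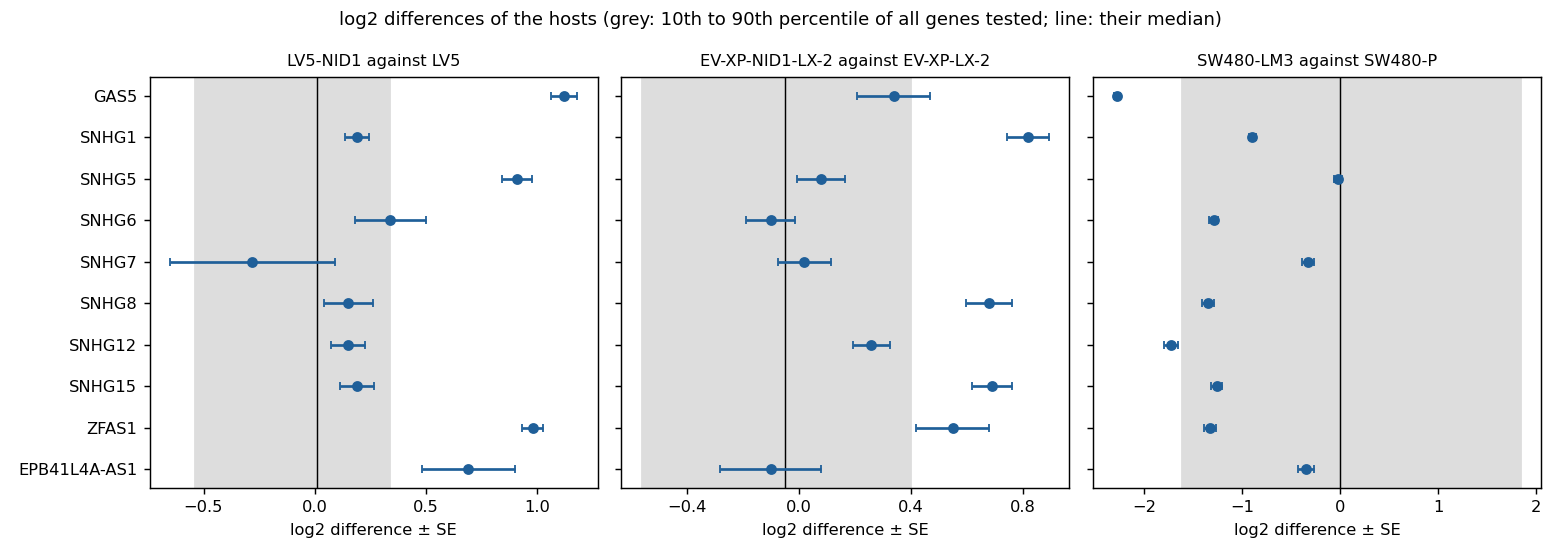
log2 difference of each host in the 3 comparisons. The x axis is the log2 difference and its standard error from the limma fit, rows are hosts, the grey band is the 10th to 90th percentile of all genes tested and the line is their median. GAS5, SNHG5, ZFAS1 and EPB41L4A-AS1 lie to the right of the band in LV5-NID1, SNHG1, SNHG8, SNHG15 and ZFAS1 in EV-XP-NID1-LX-2, and GAS5 and SNHG12 to the left of it in SW480-LM3.

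Levels can be compared between hosts only in TPM, which is scaled by transcript length. In LV5 the order from high to low was GAS5 (1172 ± 44.0 TPM, SD, n = 3), ZFAS1 (522 ± 22.6), SNHG6 (495 ± 7.96), SNHG1, SNHG8, SNHG5, SNHG7, SNHG15, SNHG12 and EPB41L4A-AS1 (34.5 ± 6.47), and no neighbours in this order overlapped. GAS5 was the 120th most abundant of all genes there. In LV5-NID1 GAS5 held rank 65 and SNHG5 had passed SNHG8, while SNHG7 overlapped SNHG15 and SNHG12 overlapped EPB41L4A-AS1. In EV-XP-LX-2 the order was SNHG5 (1016 ± 7.73 TPM), GAS5 (585 ± 19.9), SNHG1 (456 ± 10.6), ZFAS1, SNHG6, SNHG8, SNHG15, SNHG7, EPB41L4A-AS1 and SNHG12, and only SNHG7 and EPB41L4A-AS1 overlapped. In EV-XP-NID1-LX-2 SNHG1 (808 ± 83.9 TPM) and GAS5 (752 ± 155) overlapped behind SNHG5 (1082 ± 136). SNHG5 was thus the most abundant host in both LX-2 groups and in the lower ranks in LV5, side by side with the caution that the tables were normalised separately. The sum of the 10 hosts was 2605 ± 31 TPM in EV-XP-LX-2 and 3353 ± 452 TPM in EV-XP-NID1-LX-2.

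Start sites of 3 hosts lie close to a protein-coding gene of the opposite strand, within 1000 bases in GENCODE v29 on GRCh38. These GENCODE starts differ from the RefSeq first bases shown above for some hosts, GAS5, SNHG12 and ZFAS1 among them. Distances and overlaps given here hold for the GENCODE genes only. SNHG1 (chromosome 11, 62851988 to 62855914, minus strand) starts 188 bases from SLC3A2, which encodes the heavy chain of an amino acid transporter and does not overlap it. SLC3A2 rose with SNHG1 in LX-2 cells, from 627 ± 14.4 to 1050 ± 33.2 TPM (log2 difference 0.74 ± 0.0439, limma adjusted p = 0.000174). In LV5-NID1, where SNHG1 was slightly higher, SLC3A2 fell from 523 ± 12.9 to 406 ± 5.93 TPM (-0.37 ± 0.0414, limma adjusted p = 0.00504). In SW480-LM3, where SNHG1 was lower, SLC3A2 was higher (225 ± 16 to 287 ± 5.88, 0.36 ± 0.0453, limma adjusted p = 3.34e-06). SLC3A2 and SNHG1 were thus both higher in LX-2 cells and differed in sign in the other 2 comparisons.

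ZFAS1 (chromosome 20, 49278178 to 49295738, plus strand) starts 248 bases from ZNFX1, a helicase gene, and the annotated genes overlap. ZNFX1 was at 13.6 ± 1.31 TPM in LV5 and 15.1 ± 1.01 in LV5-NID1 (limma adjusted p = 0.304), while ZFAS1 was 1.97-fold higher. It was at 26.1 ± 0.247 and 28.4 ± 2.38 TPM in the LX-2 groups (limma adjusted p = 0.236), and at 47.7 ± 3.64 and 47.6 ± 1.46 in SW480-P and SW480-LM3 (limma adjusted p = 0.997). ZNFX1 did not pass the test in any of the 3 comparisons. GAS5 (chromosome 1, 173863900 to 173868882, minus strand) starts 800 bases from ZBTB37, a zinc finger gene that it overlaps. ZBTB37 was low, at 1.77 ± 0.128 TPM in LV5 and 2.28 ± 0.307 in LV5-NID1 (limma adjusted p = 0.171), and it rose in SW480-LM3, opposite to GAS5, from 9.59 ± 0.526 to 14.0 ± 1.30 (limma adjusted p = 0.000393). Whether reads were counted by strand is not given in the sources used here. Reads of a host and of an overlapping gene of the other strand then cannot be told apart, which holds for GAS5, SNHG6, SNHG7, SNHG12, ZFAS1 and EPB41L4A-AS1.

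EPB41L4A-AS1 (chromosome 5, 112160526 to 112164276, plus strand) overlaps EPB41L4A, a gene of a membrane skeleton protein. EPB41L4A fell from 12.8 ± 0.679 to 0.266 ± 0.147 in SW480-LM3 (limma adjusted p = 4.98e-12), where EPB41L4A-AS1 was lower by far less. SNHG12 (chromosome 1, 28578538 to 28583132, minus strand) overlaps TRNAU1AP, a gene of selenocysteine incorporation. TRNAU1AP fell from 50 ± 1.23 to 17.6 ± 0.508 in SW480-LM3 (log2 difference -1.46, limma adjusted p = 2.03e-11), where that of SNHG12 was -1.73. In LX-2 cells it fell from 59.7 ± 2.95 to 49.5 ± 2.77 TPM (limma adjusted p = 0.0127), where SNHG12 was higher. FAM69B, which overlaps SNHG7, rose from 2.41 ± 0.522 to 12.4 ± 0.646 in SW480-LM3 (log2 difference 1.98, limma adjusted p = 2.48e-09), where SNHG7 was lower. EPB41L4A was at 6.87 ± 0.528 TPM in LV5 and 5.17 ± 0.624 in LV5-NID1 (limma adjusted p = 0.0658), where the mean of EPB41L4A-AS1 was higher.

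Other genes of the pathway were taken from fixed lists, which had also been set with earlier results known, and are described by counts. In LV5-NID1, 6 of 17 other noncoding snoRNA hosts were called higher and none lower (median 0.24). SNHG29, the most abundant of them, rose from 1480 ± 17.6 to 2430 ± 77.4 TPM (limma adjusted p = 0.000925) and SNHG16 from 54.9 ± 1.68 to 80.0 ± 1.66 TPM (limma adjusted p = 0.00257). SNHG19, chosen after its values were seen, was at 324, 310 and 15.8 TPM in LV5-NID1 replicates 1, 2 and 3. Of 30 protein-coding snoRNA hosts, 10 were called higher and none lower (median 0.20), led by HSPA8, a constitutive chaperone, at 867 ± 6.47 and 1630 ± 88.4 TPM (limma adjusted p = 0.000822). RACK1, a ribosome-bound scaffold, rose from 2600 ± 28.3 to 3300 ± 34.6 TPM (limma adjusted p = 0.00463). The 10 became 2, 2 and 3 without LV5 replicates 1, 2 and 3, 2 without LV5-NID1 replicate 2, and 4 with the replicate number as a block, with a list median of 0.17 to 0.22 in these fits.

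Of 79 cytosolic ribosomal protein genes, 47 were called higher in LV5-NID1 and none lower (median 0.30), among them RPL39, from 5110 ± 3.54 to 7650 ± 471 TPM (limma adjusted p = 0.00301). The count was 21 after quantile normalisation, 12 with no low-value filter, and 12 to 66 with 1 library left out: 14, 12 and 22 without LV5 replicates 1, 2 and 3, and 21 and 66 without LV5-NID1 replicates 2 and 3. The list median stayed between 0.28 and 0.32 in those fits and was 0.11 after quantile normalisation. Of 12 other TOP mRNAs 4 were called higher, with NPM1, a nucleolar chaperone, at 3240 ± 65.3 and 3990 ± 16.5 TPM (limma adjusted p = 0.0073). Of 15 snoRNP proteins and assembly factors 2 were called higher: NOLC1, a nucleolar and Cajal body chaperone of snoRNPs (148 ± 5.14 to 197 ± 11.5 TPM, limma adjusted p = 0.0101), and FBL, the methyltransferase of C/D snoRNPs (382 ± 20.6 to 470 ± 36.9 TPM, limma adjusted p = 0.0425). Of 16 nonsense-mediated decay factors 2 were called higher and 1 lower (median 0.01). Of 12 other transcripts known as decay targets 3 were called lower and none higher (median -0.05), including GADD45A, a stress-response gene (32.8 ± 0.522 to 23.2 ± 1.20 TPM, limma adjusted p = 0.00627). These shorter lists also lost calls with 1 library left out: the 4 TOP mRNAs became 1 whichever LV5 library was left out and 2 without LV5-NID1 replicates 1 or 2, and the 3 decay targets became 1 in the same fits. In those fits at most 1 snoRNP factor and at most 1 decay factor was called. List medians in LV5-NID1 were thus above the median of all genes for the hosts and ribosomal protein genes and below it for the other decay targets.

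In EV-XP-NID1-LX-2, 3 of 18 other noncoding hosts were called higher and 4 lower (median -0.07). SNHG32 rose from 109 ± 4.28 to 135 ± 7.14 TPM (limma adjusted p = 0.00485), and SNHG18 fell from 14.6 ± 1.50 to 8.80 ± 1.28 TPM (limma adjusted p = 0.00454). Of 30 protein-coding hosts 17 were called higher and 4 lower (median 0.16). HSPA8 rose from 722 ± 24.4 to 1280 ± 80.0 TPM (limma adjusted p = 0.000232) and NOP58, a core protein of C/D snoRNPs, from 167 ± 8.49 to 255 ± 11.5 TPM (limma adjusted p = 0.000431), while RACK1 fell from 2360 ± 72.3 to 1700 ± 9.99 TPM (limma adjusted p = 0.000461). Of 79 ribosomal protein genes 8 were called higher and 22 lower (median -0.06), with RPL4 at 1260 ± 61.6 and 739 ± 35.3 TPM (limma adjusted p = 0.000266). Without EV-XP-NID1-LX-2 replicate 2 these counts were 14 higher and 44 lower (median -0.17), without EV-XP-LX-2 replicate 1 they were 4 and 14, 4 and 17 when EV-XP-LX-2 replicate 2 or 3 was left out, and 15 and 27 after quantile normalisation. The 17 protein-coding hosts became 10 after quantile normalisation (median 0.07), and also 10 when EV-XP-LX-2 replicate 2 or 3 was left out.

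Of 12 other TOP mRNAs 1 was called higher and 8 lower in EV-XP-NID1-LX-2 (median -0.20), and of 15 snoRNP factors 9 were called higher and 3 lower (median 0.22). GAR1, a core protein of H/ACA snoRNPs, rose from 66.8 ± 2.70 to 85 ± 1.24 TPM (limma adjusted p = 0.00168), and NHP2, of the same complex, fell by 0.47 on the log2 scale (limma adjusted p = 0.00071). Of 16 decay factors 7 were called higher and 2 lower (median 0.05). UPF3B, which links exon junctions to the decay machinery, rose from 71.3 ± 4.21 to 121 ± 2.43 TPM (limma adjusted p = 0.000247). Of 12 other decay targets 7 were called higher and 1 lower (median 0.32), with ATF4, a stress transcription factor, at 459 ± 1.77 and 629 ± 4.67 TPM (limma adjusted p = 0.0003) and DDIT3, another stress factor, lower (log2 difference -0.51, limma adjusted p = 0.00034). In LX-2 cells the 10 hosts and the ribosomal protein genes had medians of 0.30 and -0.06, against -0.05 for all genes. With EV-XP-LX-2 replicate 1 or 3 left out, 5 snoRNP factors were called higher. With EV-XP-LX-2 replicate 1 left out 4 TOP mRNAs were called lower, and 5 with EV-XP-LX-2 replicate 2 or 3 or EV-XP-NID1-LX-2 replicate 3 left out. The 2 decay factors called lower lost their call in those same 4 fits.

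In SW480-LM3, 13 of 14 other noncoding hosts were called lower and none higher (median -1.13). SNHG29 fell from 1320 ± 11.4 to 400.0 ± 10.6 (limma adjusted p = 6.08e-16), and SNHG14 was at 13.8 to 17.1 in SW480-P and listed at 0 in the 3 SW480-LM3 libraries. Of 30 protein-coding hosts 7 were called higher and 21 lower (median -0.63): HSPA8 fell from 6220 ± 75.9 to 1900 ± 71.5 (limma adjusted p = 6.91e-16), and SF3B3, a splicing factor gene, rose from 220.0 ± 3.77 to 759 ± 3.13 (limma adjusted p = 5.04e-16). The protein-coding hosts were split 12 higher and 17 lower (median -0.17) after quantile normalisation, 11 and 17 (median -0.34) with total scaling, and 8 and 22 (median -0.37) with the GC trend removed. All 79 ribosomal protein genes were called lower (median -1.40), with RPL12 at 3510 ± 129 and 524 ± 7.10 (limma adjusted p = 1.62e-17). After quantile normalisation 72 were called lower and 3 higher, with a median of -0.62. Of 12 other TOP mRNAs 10 were called lower and 2 higher (median -0.67, and -0.03 after quantile normalisation). Of 14 snoRNP factors 10 were called lower and 3 higher (median -0.51), with NOP10, of H/ACA snoRNPs, at 185 ± 4.62 and 73.3 ± 2.78 (limma adjusted p = 4.97e-13). The snoRNP median was -0.23 with total scaling and -1.0 with the GC trend removed, and that of the other noncoding hosts was -0.73 with a pseudocount of 5.

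Decay factors and decay targets had medians above 0 in SW480-LM3, where the hosts had a median below 0. Of 15 decay factors 9 were called higher and 4 lower (median 0.35). UPF1, the central helicase of the pathway, rose from 41.0 ± 1.23 to 177 ± 5.78 (limma adjusted p = 7.95e-15), and SMG6, its endonuclease, from 8.16 ± 0.734 to 73.3 ± 3.15 (limma adjusted p = 4.95e-14). Of 12 other decay targets 10 were called higher and 2 lower (median 0.41), with GADD45A at 20.4 ± 1.99 and 148 ± 2.79 (limma adjusted p = 1.31e-14) and ATF4 at 151 ± 5.35 and 328 ± 9.36 (limma adjusted p = 8.71e-13). The decay targets were 6 higher and 4 lower (median 0.17) with the GC trend removed, and 7 higher and 1 lower (median 0.29) after quantile normalisation. The median of the decay factors ran from 0.32 without SW480-P replicate 1 to 0.64 with total scaling.

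**Figure D4:**
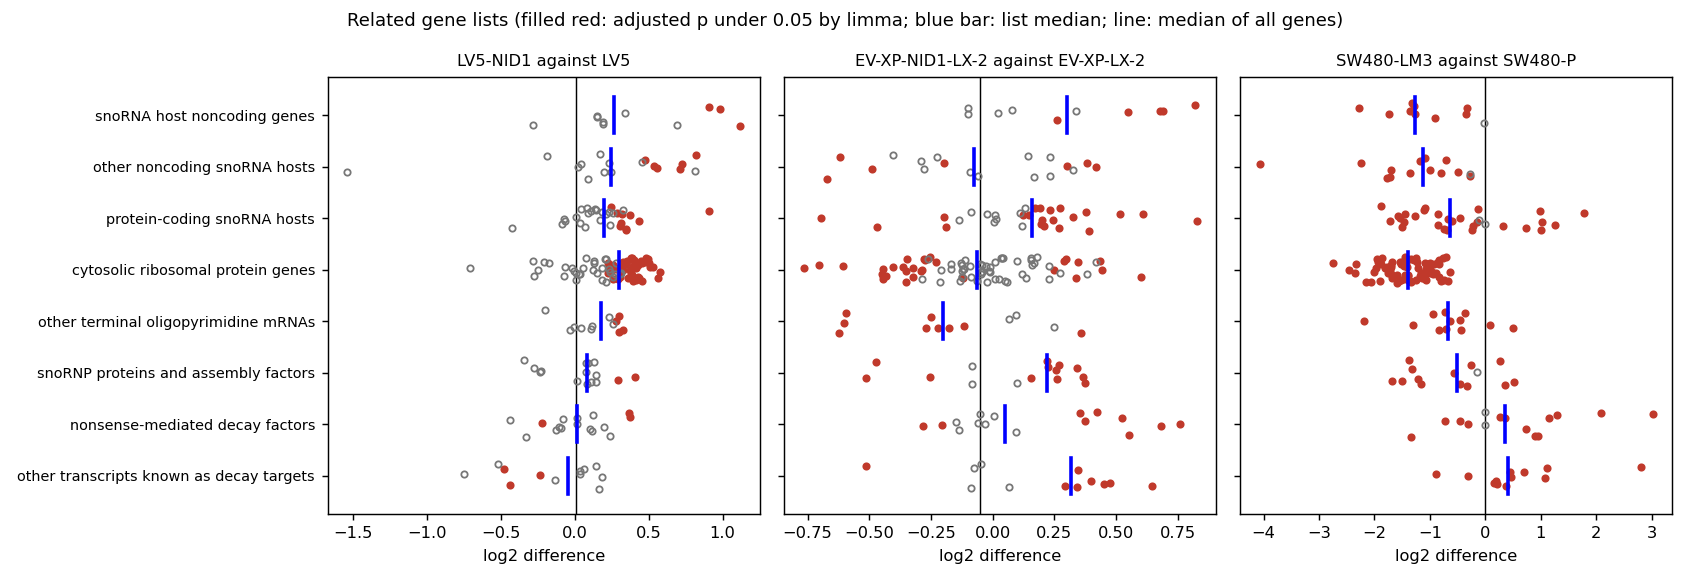
log2 differences of the hosts and of 7 related gene lists in the 3 comparisons. The x axis is the log2 difference, each point is a gene, filled red points have a limma adjusted p under 0.05, blue bars are list medians and the black line is the median of all genes. The medians of the ribosomal protein genes and of the hosts lie right of the line in LV5-NID1 and left of it in SW480-LM3, while in EV-XP-NID1-LX-2 the median of the hosts lies to the right and that of the ribosomal protein genes at the line; single genes lie on both sides in LV5-NID1 and EV-XP-NID1-LX-2.

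The genes most like GAS5 across the 12 libraries in TPM were ranked by the root mean square difference of log2(TPM + 1), each gene centred on its mean within a table. Of 9421 genes with a mean of at least 5 TPM in both tables, those with a clone name or named as new by the authors were left out. The ranks are therefore over fewer genes. The 5 closest were ZFAS1 (0.112), SNHG5 (0.136), CLGN (0.148), TXNIP (0.169) and HSPA8 (0.207). CLGN, a chaperone of the endoplasmic reticulum, was at 6.89 and 18.2 TPM in LV5 and LV5-NID1 and at 19.6 and 22.2 TPM in EV-XP-LX-2 and EV-XP-NID1-LX-2. TXNIP, an inhibitor of thioredoxin, was at 16.7 and 47.5 TPM and at 185 and 265 TPM in the same order. ZFAS1 and SNHG5 are hosts themselves, and HSPA8 is a protein-coding snoRNA host. The other 7 hosts ranked between 1067 and 8077, SNHG7 being the farthest. The ranking is a description of 12 libraries from separately normalised tables of 2 groups each.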

How the data were processed

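RNA from 18 libraries (6 groups of 3) was analysed from 3 expression tables. Per the submitters' processing notes, HISAT2 2.1.0 and Bowtie2 2.3.5 were used; neither their roles nor the counter, build or gene models are stated in the sources used here. The authors deposited TPM values for the LV5 and LX-2 tables and a normalized signal for SW480-P and SW480-LM3. In the latter, the deposited signal gave whole reads (within 0.05) for 100% of values after multiplication by 1 factor per library.

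Each table was fitted separately with limma 3.58.1 (R 4.3.3, variance trend) on log2(value + 1), keeping genes that reached 1 in 3 or more libraries, with Benjamini-Hochberg adjustment over all genes tested; a fold on this scale understates changes of low genes. edgeR 4.0.16 and DESeq2 1.42.0 on the recovered reads were alternatives, which called 12687 and 12386 genes where limma called 12749. On simulated data with 100 genes changed by 1 on the log2 scale, the fit called 98% of them for SW480-LM3, 89% for EV-XP-NID1-LX-2 and 85% for LV5-NID1 (14527, 15802 and 15508 genes). Of 100 genes changed by 0.5 in the same runs, it called 83%, 58% and 44% in the same order. The changed genes were drawn only from genes with a control mean above 3 on the log2 scale. These rates therefore do not hold for lower genes. The simulated noise was independent for each gene and library and most genes were unchanged. Shifts shared by many genes of a library, as described above, were therefore not part of it. The depth in TPM tables is unknown. SNHG6's start sequence is not reported here, and SNHG15 had no entry. Named genes were the 10 hosts, NID1, the 5 genes most like GAS5, up to 3 called genes per list by adjusted p, and genes of the opposite strand starting within 1000 bases; overlapping genes were added after the values were seen. The members and lists were chosen with earlier results of these data known.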

Additional observations from a re-analysis of the deposited data

How the results depend on the processing

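Over the alternatives for scaling, pseudocount, low-value filter, variance trend, replicate block, left-out libraries, GC trend and, for SW480-LM3, edgeR and DESeq2, 175 of 180 values of single hosts in SW480-LM3, 157 of 170 in LX-2 cells and 165 of 170 in LV5-NID1 kept their direction and their side of the threshold. The GC correction and the group medians were chosen after seeing the data. Group medians, counted for the TPM tables only, have no test and so no side of a threshold. There a value counted as kept if its sign held and it lay within a margin set by the standard error of the main fit. Leaving out 1 library at a time gave 3 to 6 called hosts in LV5-NID1 (6 without LV5-NID1 replicate 3), 4 to 6 in EV-XP-NID1-LX-2 and 9 in SW480-LM3. Where a left-out library leaves a group of 2, the spread is pooled over both groups. The share of all genes called in LV5-NID1 varied from 4.60% to 21.4% over those fits and was 4.71% with no low-value filter. In LX-2 cells it was 17.5% with no filter. The count of called hosts in a fit depends on this share too, so an unchanged count is no measure of stability.

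Directions turned in hosts near 0. In SW480-LM3, SNHG5 was 0.13 after quantile normalisation, 0.26 with total scaling and 0.28 with the GC trend removed. In LX-2 cells, SNHG7 was -0.011 without mitochondrial genes, and with libraries left out in turn it ran from -0.043 (EV-XP-NID1-LX-2 replicate 3 left out) to 0.12, turning also when EV-XP-LX-2 replicate 2 was left out (-0.029). EPB41L4A-AS1 ran from -0.28 to 0.064 (EV-XP-NID1-LX-2 replicate 2 left out), and was 0.0037 when EV-XP-LX-2 replicate 3 was left out. SNHG5 ran from -0.017 (EV-XP-NID1-LX-2 replicate 2 left out) to 0.14, and was -0.010 by group medians. In LV5-NID1, SNHG7 ran from -0.53 to 0.18 (LV5-NID1 replicate 3 left out), and was 0.13 by group medians. The cause was not tested.

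Samples with the same replicate number did not deviate together (correlations of -0.047 to 0.063), so the numbers were not taken as pairs. With the replicate block, 9 hosts were called in SW480-LM3, 6 in EV-XP-NID1-LX-2 (GAS5 gained) and 3 in LV5-NID1, where 87.6%, 37.7% and 5.74% of all genes were called, against 87.8%, 42.3% and 16.6% without it. Not every library correlated best with its own number in any of the 3 comparisons. Recovery of reads was possible only for SW480-P and SW480-LM3, so count tests of the TPM tables were not run.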
